A study of Mus musculus with 6 samples.

Results

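Matricellular proteins are secreted proteins that sit in the extracellular matrix and act on cell-surface receptors, proteases and growth factors more than as building blocks of the matrix. The 8 genes described here encode the thrombospondins 1 to 4 (Thbs1, Thbs2, Thbs3, Thbs4), SPARC (Sparc), its relative hevin (Sparcl1), tenascin C (Tnc) and periostin (Postn). They were found by gene symbol in a table of 30707 genes, and all 8 were present once. The set was drawn up with results of the same comparison in view, so the differences of these 8 genes between the groups are given as a description, with no test.

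RNA came from mouse hippocampus, from 3 samples infected with a control virus and 3 infected with a virus that knocks down SFRS8, a regulator of pre-mRNA splicing whose current mouse gene symbol is Sfswap. All 6 samples had thus received a virus, and the labels name no uninfected group. The labels give no strain, age, sex, kind of virus or time after infection, and do not state whether each sample is a separate animal. The question named by the title of the series is how this factor acts on memory through the splicing of synaptic genes.

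In rodent brain, astrocytes secrete thrombospondins that promote the formation of excitatory synapses through the neuronal calcium channel subunit α2δ-1, encoded by Cacna2d1. Hevin, also made largely by astrocytes, promotes the formation of excitatory synapses, and SPARC counteracts hevin in mouse neurons. Tenascin C and periostin are matrix proteins of development and tissue repair, with low levels in most of the adult brain.

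The values were FPKM, fragments scaled to exon length and library size, and rested on libraries of 16622948 to 18097344 reads. Sfswap stood at 16.7, 18.5 and 19.2 FPKM in the control samples and at 9.79, 11.3 and 9.58 in the knockdown samples, an amount left of 0.564 of the control mean. Markers of hippocampal principal neurons were present in every sample, with Prox1, a marker of dentate granule cells, at 11.7 to 18.0 FPKM and Neurod6, a marker of pyramidal neurons, at 51.1 to 80.6 FPKM. Samples differed in tissue that is not hippocampal parenchyma. Choroid plexus markers summed to 50.6 and 71.3 FPKM in control samples 1 and 2, to 3067 in control sample 3, and to 4636, 4323 and 1189.8 in knockdown samples 1 to 3.

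In the knockdown samples 5 of the 8 genes stood above every control sample, namely Thbs1, Thbs2, Thbs4, Sparc and Tnc, whereas Thbs3, Sparcl1 and Postn overlapped between the groups. Of all 14012 genes tested, those with a mean of at least 1 FPKM, 18.0% had knockdown samples that all lay above the controls. Postn, at a mean of 0.533 FPKM, did not reach that level, and Thbs1 and Tnc reached it through the knockdown samples alone, since their control means were 0.671 and 0.863 FPKM. The fit across all genes called 2 of the 7 that reached it, Thbs4 and Sparc, both higher, where 1.43% of all genes were called in either direction 1.20% as higher and 0.228% as lower. Since the set was chosen on this comparison, nothing is read from these counts. In whole tissue, a change in the number of cells of a type and a change in RNA per cell cannot be told apart, and this holds for every value below.

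**Figure D1:**
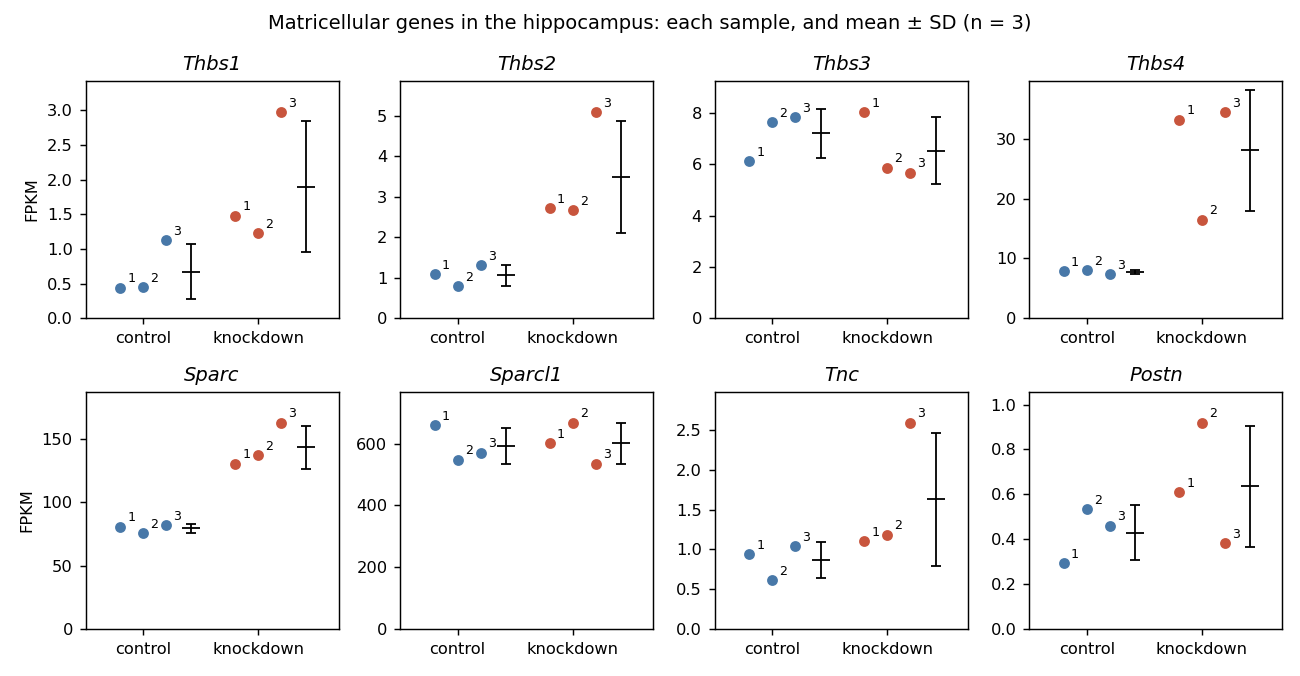
FPKM of the 8 genes in each sample (vertical axes, linear from 0, a scale of its own for each gene), with the replicate number beside each point, blue for control virus and red for Sfswap knockdown virus. Black marks give the mean ± SD of 3 samples. Knockdown sample 3 is highest for Thbs1, Thbs2, Thbs4, Sparc and Tnc, knockdown sample 2 is lowest of its group for Thbs4, and Thbs3, Sparcl1 and Postn overlap.

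Thbs4 encodes a thrombospondin that in adult mouse brain is known from astrocytes of the neurogenic subventricular zone. Its gene (ENSMUSG00000021702, mm10 chr13:92751590-92794818, minus strand) stood at 7.83, 8.06 and 7.36 FPKM in the controls, numbered 1 to 3, and at 33.2, 16.5 and 34.5 FPKM in the same order of knockdown samples. The control samples were nearly level, with a coefficient of variation of 4.63%, and the knockdown samples spread over a wide range, with one of 35.8%. Knockdown sample 2 had the smallest difference and was still above every control. The group means were 7.75 ± 0.359 and 28.0 ± 10.04 FPKM (SD, n = 3 each), a ratio of 3.62 and a log2 fold change of 1.66 on the log2(FPKM + 1) scale. The values rested on 444, 480 and 435 control reads and on 1935, 900 and 1976 knockdown reads. The ratio was 4.36 without knockdown sample 2 and 3.20 without knockdown sample 3. The call of the fit across all genes was lost without control sample 1, 2 or 3 and without knockdown sample 1 or 3.

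Thbs3 encodes a protein of the same subgroup of thrombospondins, the one that assembles into pentamers. Its gene (ENSMUSG00000028047, mm10 chr3:89215180-89226837, plus strand) stood at 6.12, 7.63 and 7.83 FPKM in the controls and at 8.03, 5.86 and 5.67 FPKM in the knockdown samples, on 470 to 687 reads. Knockdown sample 1 was the highest of the 6 and knockdown samples 2 and 3 the lowest. The means of 7.20 ± 0.936 and 6.52 ± 1.31 FPKM gave a ratio of 0.907. In the control samples Thbs3 and Thbs4 had like levels per length, with a ratio of Thbs4 to Thbs3 of 1.28, 1.06 and 0.939. In the knockdown samples that ratio was 4.13, 2.81 and 6.07.

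Thbs1 and Thbs2 encode the thrombospondins that assemble into trimers and carry the type 1 repeats that bind the receptor CD36. Mice that lack both are known to form fewer excitatory synapses in the cortex. Thbs1 (ENSMUSG00000040152, mm10 chr2:118111876-118127133, plus strand) stood at 0.439, 0.446 and 1.13 FPKM in the controls and at 1.48, 1.23 and 2.98 FPKM in the knockdown samples. Control sample 3 lay close below knockdown sample 2, on 123 and 124 reads, and knockdown sample 3 stood apart with 315. The means were 0.671 ± 0.395 and 1.89 ± 0.945 FPKM, a ratio of 2.82 that was 2.02 without knockdown sample 3 and 4.28 without control sample 3. Because both means are near the pseudocount of 1, the log2 fold change of 0.77 understates this ratio, and with a pseudocount of 0.1 it was 1.39.

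Thbs2 (ENSMUSG00000023885, mm10 chr17:14665500-14694262, minus strand) stood at 1.09, 0.784 and 1.31 FPKM in the controls and at 2.71, 2.67 and 5.10 FPKM in the knockdown samples. The lowest knockdown sample was above the highest control, and knockdown sample 3 again stood highest. The means were 1.06 ± 0.262 and 3.49 ± 1.39 FPKM, a ratio of 3.30 that was 2.54 without knockdown sample 3. The summed exon length in GENCODE M21, 7003 bp, gave no whole reads for this gene. The shortest length over 1 kb that did in all 6 samples was 5922 bp, at which the values stood for 111, 84 and 139 control reads and 285, 263 and 526 knockdown reads.

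Summed over the 4 thrombospondin genes, the level per length was 15.5, 16.9 and 17.6 FPKM in the controls and 45.4, 26.2 and 48.2 FPKM in the knockdown samples. Thbs4 made up 50.6%, 47.6% and 41.8% of the sum in control samples, against 73.1%, 62.8% and 71.5% in knockdown samples. The share of Thbs3 was 39.5% to 45.1% in the controls and 11.8% to 22.4% in the knockdown samples. Thbs1 and Thbs2 had shares that overlapped between the groups, at 2.63% to 6.39% against 3.25% to 6.17% for Thbs1 and at 4.63% to 7.41% against 5.98% to 10.6% for Thbs2. The summed level was thus higher in each knockdown sample, and most of that difference lay in Thbs4.

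**Figure D2:**
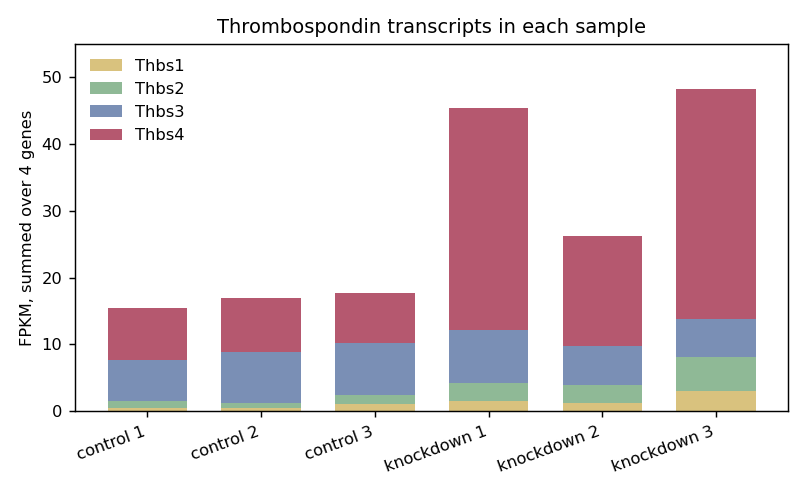
Stacked bars of the FPKM of Thbs1, Thbs2, Thbs3 and Thbs4 in each of the 6 samples (vertical axis, linear from 0, no error bars because each bar is 1 sample). The sums run from 15.5 to 17.6 FPKM in the controls and from 26.2 to 48.2 FPKM in the knockdown samples, and the Thbs4 part is the largest in every sample but control sample 3.

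Promoter windows of Thbs4 and Thbs3 are shown because these genes had like control levels and unlike knockdown levels. Those of Thbs2 and Tnc are shown as examples of genes with low control levels. Promoters from RefSeq on GRCm38.p6, the assembly of mm10, were found for 6 of the 8 genes, and the 250 bases before the start of transcription are printed 5′ to 3′ on the strand of the gene. Capitals mark matches, on either strand of the window, to any of 3 short motifs. The first motif is the TATA box core, spelled TATAAA when read along the gene. The second motif is the CCAAT box, spelled by its own name. The last motif is the GC box bound by Sp1 and related factors, spelled GGGCGG when read along the gene. A match on the opposite strand shows as the reverse complement of these letters.
Thbs4, chr13:92794819-92795068, minus strand: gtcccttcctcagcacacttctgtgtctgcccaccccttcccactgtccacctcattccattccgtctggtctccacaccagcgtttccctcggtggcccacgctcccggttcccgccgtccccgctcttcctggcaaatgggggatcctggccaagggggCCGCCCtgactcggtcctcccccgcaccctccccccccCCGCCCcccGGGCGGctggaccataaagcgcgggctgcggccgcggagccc
Thbs3, chr3:89214930-89215179, plus strand: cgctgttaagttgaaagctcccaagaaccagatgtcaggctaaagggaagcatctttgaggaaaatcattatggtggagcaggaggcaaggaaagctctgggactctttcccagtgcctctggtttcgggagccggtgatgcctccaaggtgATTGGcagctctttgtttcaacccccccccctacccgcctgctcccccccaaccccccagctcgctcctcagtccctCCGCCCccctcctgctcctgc
Thbs2, chr17:14694263-14694512, minus strand: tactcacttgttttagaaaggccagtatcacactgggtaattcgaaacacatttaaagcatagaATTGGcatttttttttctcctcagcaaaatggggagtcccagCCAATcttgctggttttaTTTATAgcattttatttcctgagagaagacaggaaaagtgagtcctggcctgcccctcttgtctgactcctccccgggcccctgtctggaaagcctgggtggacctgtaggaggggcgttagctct
Tnc, chr4:64047016-64047265, minus strand: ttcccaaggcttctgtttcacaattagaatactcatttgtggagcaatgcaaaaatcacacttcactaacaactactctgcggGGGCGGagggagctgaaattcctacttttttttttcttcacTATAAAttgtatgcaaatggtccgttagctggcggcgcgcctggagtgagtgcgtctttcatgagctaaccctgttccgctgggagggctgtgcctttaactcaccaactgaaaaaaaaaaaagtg
The window of Thbs4 was 70.8% G or C and held 19 CG dinucleotides, against medians of 52.4% and 6 over 32851 mouse promoter windows of that length. It held GGGCGG at 3 places, a motif present in 32.7% of all windows, and no TATAAA, which 12.4% of all windows held. The window of Thbs3 held 1 GGGCGG and 1 CCAAT, the latter present in 33.8% of all windows. The window of Thbs2 was 46.8% G or C and held CCAAT at 2 places, while that of Tnc was 44.8% G or C. Each of these last windows held TATAAA 126 bases before the start, in Thbs2 on the opposite strand. RefSeq gives Tnc another start, whose window overlaps an annotated exon and is not printed, and there TATAAA lay 205 bases before the start and 51.2% of bases were G or C. Windows of Postn, which had the lowest control mean of the 8 genes, are not printed either. In the Postn window nearer the gene, TATAAA lay 26 bases before the start. Neither TGANTCA, the AP-1 motif present in 6.75% of windows, nor the CArG box, present in 1.47%, occurred in any window of the 6 genes. These matches describe letters in the window and are not measured binding sites.

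Sparc encodes SPARC, also called osteonectin, a calcium-binding protein that binds collagen. In adult brain it is known from endothelium, microglia and some astrocytes. The gene (ENSMUSG00000018593, mm10 chr11:55394500-55423183, minus strand) stood at 80.8, 75.6 and 81.8 FPKM in the controls and at 131, 137 and 163 FPKM in the knockdown samples. All 3 knockdown samples lay far above the controls, and the spread within each group was small, with coefficients of variation of 4.13% and 11.8%. The means of 79.4 ± 3.28 and 144 ± 17.0 FPKM gave a ratio of 1.81, which ran from 1.69 to 1.89 when any single sample was left out. From 5186 to 5566 reads stood behind each control value and from 8651 to 10755 behind each knockdown value. The call of the fit across all genes was lost without control sample 1, 2 or 3 and without knockdown sample 1.

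Sparcl1 encodes hevin, and it had the highest level per length of the 8 genes in every sample. The gene (ENSMUSG00000029309, mm10 chr5:104079111-104113733, minus strand) stood at 659.7, 548 and 571 FPKM in the controls and at 601, 668 and 535 FPKM in the knockdown samples. The groups covered nearly the same range, with means of 593 ± 58.9 and 601 ± 66.1 FPKM and a ratio of 1.01. The sign of its log2 fold change of 0.02 turned negative without control sample 2 or 3, without knockdown sample 2, after scaling to an equal FPKM sum and after quantile normalization. Hevin transcripts exceeded SPARC transcripts 8.17-fold, 7.25-fold and 6.98-fold per length in the controls and 4.597-fold, 4.86-fold and 3.29-fold in the knockdown samples, so this ratio did not overlap between the groups.

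Tnc (ENSMUSG00000028364, mm10 chr4:63959785-64047015, minus strand) stood at 0.940, 0.611 and 1.04 FPKM in the controls and at 1.10, 1.18 and 2.59 FPKM in the knockdown samples. Knockdown samples 1 and 2 were just above the highest control, and only knockdown sample 3 stood clearly apart. In reads these values were 126, 86 and 145 against 152, 153 and 351. The means of 0.863 ± 0.224 and 1.63 ± 0.837 FPKM gave a ratio of 1.88, which was 1.32 without knockdown sample 3. Postn (ENSMUSG00000027750, mm10 chr3:54361109-54391037, plus strand) had the lowest mean level of the 8, at 0.293, 0.533 and 0.460 FPKM in the controls and 0.609, 0.919 and 0.382 FPKM in the knockdown samples. Here knockdown sample 3 lay below 2 of the controls and knockdown sample 2 was highest, on 133 reads.

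By level per length in the controls, the order was Sparcl1, Sparc, Thbs4, Thbs3, Thbs2, Tnc, Thbs1 and Postn. The control samples of Thbs4 and Thbs3 overlapped, as did those of each of the neighbouring pairs from Thbs2 down to Postn. In the knockdown samples the first 5 kept these places by their means without overlap between neighbours, and Thbs1, now ahead of Tnc, overlapped with both Thbs2 and Tnc.

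Over the 6 samples the 8 genes fell into different patterns. Genes were set beside them by the root mean square difference of log2(FPKM + 1), centred on each gene's mean over the 6 samples, for the 5 genes that reached 1 FPKM on average and whose highest sample was at least 2 times the lowest. For Thbs4 the most alike were Kcne1l, an accessory subunit of potassium channels, at 0.08, Creb3l1, a membrane-bound transcription factor, at 0.16, and Mamdc2, a secreted proteoglycan, at 0.16. Kcne1l stood at 5.15, 5.73 and 5.16 FPKM in the controls and at 24.1, 10.6 and 26.9 FPKM in the knockdown samples. Its low value in knockdown sample 2 and its high values in knockdown samples 1 and 3 followed those of Thbs4. Kcne1l was picked for this likeness.

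For Thbs1 the most alike genes were Islr, a secreted leucine-rich repeat protein, at 0.05, Tpm2, a tropomyosin, at 0.07 and Emilin1, an elastic fibre protein, at 0.08. For Thbs2 they were Myl9, a myosin light chain, at 0.07, Inmt, a methyltransferase, at 0.12 and Cox7a1, a subunit of cytochrome c oxidase, at 0.13. For Tnc they were Mylk, the kinase of myosin light chain, at 0.04, Smoc1, a relative of SPARC, at 0.06 and Syt12, a synaptotagmin, at 0.08. Mylk stood at 2.27, 1.91 and 2.47 FPKM in the controls and at 2.54, 2.74 and 5.38 FPKM in the knockdown samples. In all 9 of these genes, as in Thbs1, Thbs2 and Tnc, knockdown sample 3 was the highest of the 6. The 9 genes were picked for their likeness over these same samples, so this follows from the choice. For Sparc the most alike were Bag3, a cochaperone, at 0.04, Itgb1, the integrin β1 subunit, at 0.05 and Hipk3, a protein kinase, at 0.06. Itgb1 stood at 14.4, 13.9 and 15.1 FPKM in the controls and at 22.3, 24.4 and 29.3 FPKM in the knockdown samples.

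**Figure D3:**
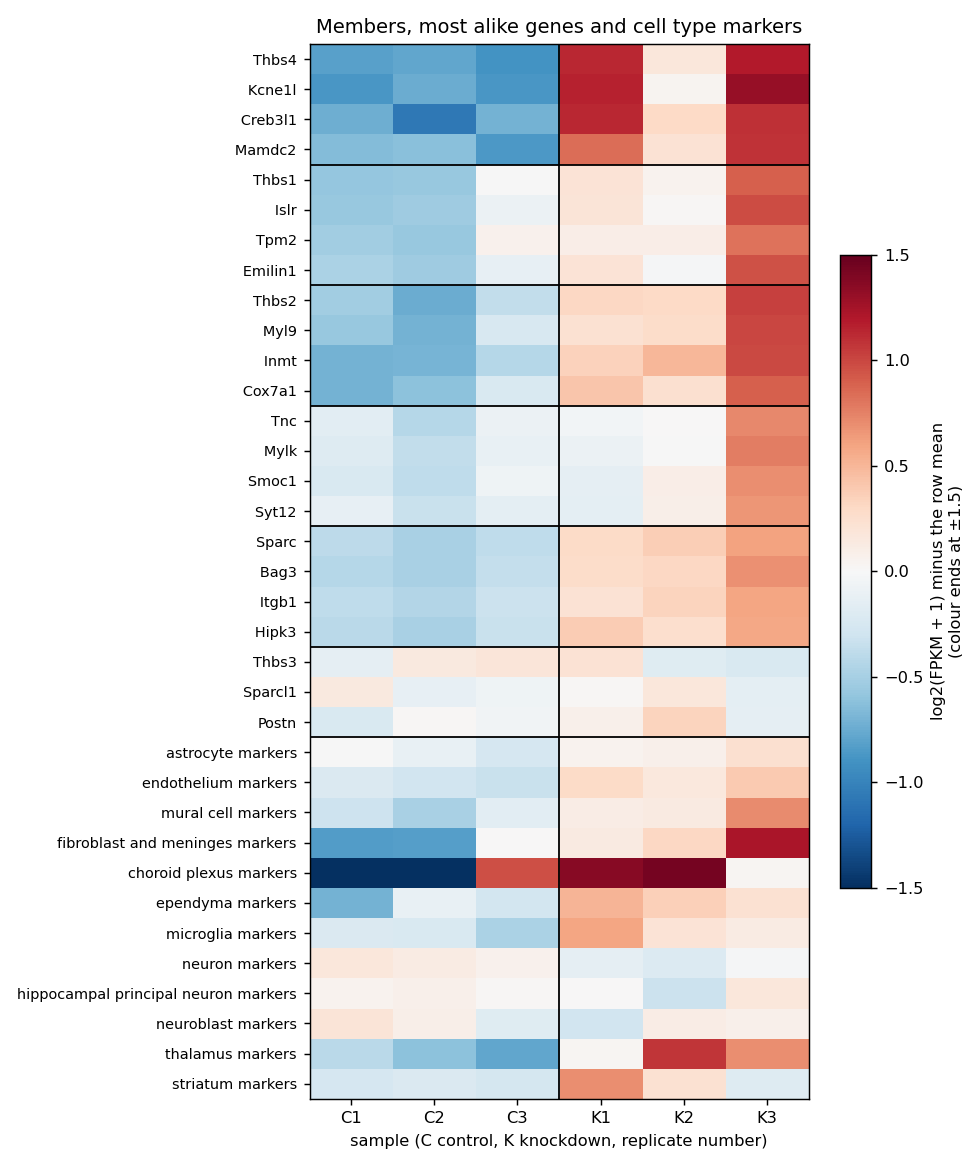
Colour gives log2(FPKM + 1) minus the row's own mean over the 6 samples (columns C1 to C3 control, K1 to K3 knockdown), and values past ±1.5 have the end colour. The upper blocks hold Thbs4, Thbs1, Thbs2, Tnc and Sparc, each above its 3 most alike genes, followed by Thbs3, Sparcl1 and Postn, and the lowest block gives the mean over each list of cell type markers. Knockdown sample 3 has the highest value for Thbs1, Thbs2, Thbs4, Sparc and Tnc and for the fibroblast, mural, endothelial and astrocyte markers, while choroid plexus markers are low in control samples 1 and 2 alone.

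Marker sums of some other cell types also differed between the groups, while others overlapped. The part of these cell types in the result was not tested. All 7 fibroblast and meningeal markers had positive log2 fold changes, 5 of them without overlap between the groups, and none was at 0 in every sample. Over all 14012 genes tested, 7449 had positive log2 fold changes and 18.0% had knockdown samples that all lay above the controls. The sum of the 7 markers was 26.7, 26.4 and 84.7 FPKM in the controls and 95.1, 104 and 112 FPKM in the knockdown samples. Igf2, which overlapped between the groups, gave 14.0, 10.2 and 58.3 FPKM of the control sums and 67.9, 70.5 and 38.6 FPKM of the knockdown sums. Among them Col1a1, a fibrillar collagen, stood at 1.89, 1.69 and 3.43 FPKM in the controls and at 5.37, 4.40 and 20.3 FPKM in the knockdown samples. The 6 mural cell markers summed to 31.2 to 41.6 FPKM in the controls and to 55.5, 60.0 and 98.9 FPKM in the knockdown samples. Knockdown sample 3 had the highest sum in both lists and in the endothelial and astrocyte lists, as it was highest for Thbs1, Thbs2, Thbs4, Sparc and Tnc. Among single astrocyte markers it was highest for Aqp4, Gfap and Gja1 alone, with Gfap at 454 FPKM the largest part of its sum. Aldoc, of the same list, was lowest of the 6 samples there, at 168 FPKM.

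The 6 endothelial markers summed to 31.5 to 33.5 FPKM in the controls and to 54.5, 44.1 and 60.2 FPKM in the knockdown samples, with Pecam1 called higher. The 6 microglial markers summed to 183 to 245 FPKM against 305 to 468 FPKM. The 8 astrocyte markers summed to 880.1 to 1050.4 FPKM in the controls and to 895 to 1130.1 FPKM in the knockdown samples, and 2 of them, Aqp4 and Gja1, were called higher. Aldoc, of the same list, stood at 287 ± 22.3 FPKM in the controls and at 213 ± 43.3 FPKM in the knockdown samples, all 3 of them below the controls, without being called (limma adjusted p = 0.143). Gfap overlapped between the groups, with knockdown sample 3 highest at 454 FPKM and knockdown sample 1 lowest at 199.8 FPKM. Markers of thalamus summed to 11.2 to 16.8 FPKM against 28.0, 66.2 and 47.4 FPKM, so that knockdown sample 2, the lowest of its group for Thbs4, was the highest for thalamus. Ramp3, of the thalamus list, was called higher (limma adjusted p = 0.0432). The 4 ependymal markers summed to 14.4 to 23.6 FPKM against 34.6 to 47.0 FPKM, without overlap. All 5 neuronal markers had negative log2 fold changes, none was called, and Snap25 and Syt1 lay below the controls in all 3 knockdown samples. Over all 14012 genes tested, 6563 had negative log2 fold changes and 11.8% had knockdown samples that all lay below the controls. Striatal markers summed to 28.6 to 37.9 FPKM in the controls and to 76.5, 49.97 and 33.8 FPKM in the knockdown samples. Drd1, of the striatal list, was called higher (limma adjusted p = 0.0452). With a control mean of 0.783 FPKM, it entered the fit through the knockdown samples alone.

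Among the controls, control sample 3 had the highest choroid plexus, fibroblast and mural sums, and its values are set beside single knockdown samples here. Its choroid plexus sum of 3067 FPKM was above the 1189.8 FPKM of knockdown sample 3, and its fibroblast and mural sums were below those of that sample. Igf2, the largest part of the fibroblast sum in control sample 3, stood at 58.3 FPKM there and at 38.6 FPKM in knockdown sample 3. The mean log2 level of the fibroblast and meningeal list was 2.70 in control sample 3 and 3.92 in knockdown sample 3. Thbs4 was 4.68-fold, Thbs2 3.90-fold, Thbs1 2.64-fold, Tnc 2.495-fold and Sparc 1.99-fold higher in knockdown sample 3. The same level of 2.70 in control sample 3 stood beside 2.82 in knockdown sample 1, where the mural sum was also higher. In the fibroblast and mural lists, Slc6a13, Acta2 and Myh11 were lower in knockdown sample 1 and all other genes, Col1a1 and Lum among them, higher. Beside control sample 3, knockdown sample 1 was 4.51-fold higher for Thbs4, 2.08-fold for Thbs2, 1.60-fold for Sparc, 1.31-fold for Thbs1 and 1.06-fold for Tnc. Knockdown sample 2 had a choroid plexus sum of 4323 FPKM and a mean log2 level of fibroblast and meningeal markers of 3.00. Against control sample 3 it was 2.24-fold higher for Thbs4, 2.05-fold for Thbs2, 1.68-fold for Sparc, 1.09-fold for Thbs1 and 1.14-fold for Tnc. Each of these is a ratio of 1 sample to 1 sample with no replicate check, and the part of these tissues in the differences was not tested.

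Receptors, partners and relatives of the matricellular proteins were described from 7 lists that held 88 genes, of which 72 reached a mean of 1 FPKM. Of the 72, 6 were called higher and 0 lower at a Benjamini-Hochberg adjusted p under 0.05 in limma, where 168 and 32 of the 14012 genes tested were called. Without adjustment for multiple testing, 30 of the 72 were higher and 1 lower at a limma p under 0.05, beside 2199 higher and 1118 lower of all 14012 genes. The log2 fold changes were positive for 62 and negative for 10, with a median of 0.30, and over all genes tested they were positive for 7449 and negative for 6563, with a median of 0.02. Knockdown samples all lay above the controls in 30 of the 72 and all below in 1, where the shares over all genes tested were 18.0% and 11.8%. Of the 72, Sdc1, Col3a1 and Ltbp1 reached 1 FPKM through the knockdown samples alone, with control means of 0.413, 0.613 and 0.805 FPKM. Because the lists were also chosen with earlier results of these data known, nothing is read from these counts. With 3 samples against 3, an exact permutation test of a single gene cannot go below p = 0.1, so calls rest on the fit across all genes. Leaving out control sample 1, 2 or 3, or knockdown sample 1 or 3, gave 0 called of the 72.

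**Figure D4:**
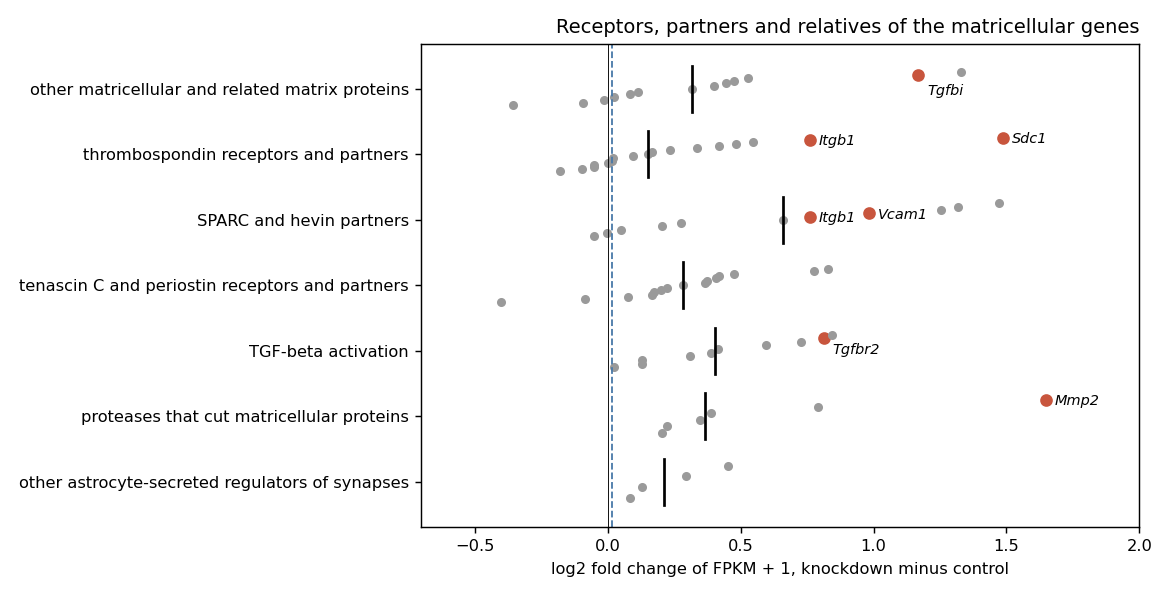
Log2 fold change of FPKM + 1 (horizontal axis, knockdown minus control, n = 3 each) for the tested genes of the 7 lists, 1 point per gene, with genes called at an adjusted p under 0.05 in red and named. Black bars mark each list's median, from 0.15 to 0.66, and the dashed line marks the median of all 14012 genes tested, 0.02.

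Among receptors and partners of thrombospondins, the called genes were Itgb1 and Sdc1, 2 of 17 tested, and none was called lower. Itgb1 rose from 14.4 ± 0.631 to 25.3 ± 3.59 FPKM, a log2 fold change of 0.76 (SE 0.11, limma adjusted p = 0.0432), with all 3 knockdown samples above every control. Sdc1, the proteoglycan syndecan 1, stood at 0.365, 0.232 and 0.643 FPKM in the controls and at 3.14, 2.38 and 3.33 FPKM in the knockdown samples and was also called (limma adjusted p = 0.0432). With a control mean of 0.413 FPKM, Sdc1 entered the fit through the knockdown samples alone, as Thbs1 and Tnc did. Itga6, the integrin α6 subunit, stood at 1.62-fold without passing (limma adjusted p = 0.0614). Cacna2d1, the neuronal receptor, stood at 12.6 ± 1.41 and 12.8 ± 2.55 FPKM, and Cd47 at 26.2 ± 2.84 and 28.3 ± 5.53 FPKM, differences smaller than the spread between samples. These last genes were chosen after their values were seen.

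Among partners of SPARC and hevin, 2 of 11 were called higher, Itgb1 again and Vcam1, a vascular adhesion protein to which SPARC binds. Vcam1 rose from 4.36 ± 0.757 to 9.54 ± 0.684 FPKM (log2 fold change 0.98, SE 0.12, limma adjusted p = 0.0432), and all 3 knockdown samples were above every control. Stab1, the scavenger receptor that takes up SPARC, stood at 1.77-fold (limma adjusted p = 0.0544). The fibrillar collagens Col1a1, Col1a2 and Col3a1 stood at 4.29-fold, 3.48-fold and 7.44-fold but were not called, and knockdown sample 3 was far above the other knockdown samples for each. Col3a1 had a control mean of 0.613 FPKM and entered the fit through the knockdown samples alone, at 1.24, 1.32 and 11.1 FPKM. Nlgn1, which encodes a postsynaptic adhesion protein and was chosen after its values were seen, stood at 4.27 ± 0.279 and 4.12 ± 0.709 FPKM.

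None of the 15 tested receptors and partners of tenascin C and periostin was called in limma, although before adjustment (p under 0.05) 8 of the 15 were higher and 0 lower, beside 2199 and 1118 of all 14012 genes. Itgb5, an integrin subunit through which periostin signals, stood at 24.7, 23.6 and 25.5 FPKM in the controls and at 61.0, 38.7 and 37.2 FPKM in the knockdown samples (limma adjusted p = 0.0655). Itgav, its α subunit, stood at 1.42-fold (limma adjusted p = 0.0704) and Egfr, the epidermal growth factor receptor, at 1.49-fold (limma adjusted p = 0.0867). In 8 of the 15 the knockdown samples all lay above the controls, where the share over all genes tested was 18.0%.

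In the list around activation of TGF-β, which thrombospondin 1 can release from its latent form, all 10 tested genes had positive log2 fold changes and 1 was called. Of all 14012 genes tested, 7449 had positive log2 fold changes and 1.20% were called higher. Ltbp1, 1 of the 10, had a control mean of 0.805 FPKM and entered the fit through the knockdown samples, with knockdown sample 3 at 2.04 FPKM. Tgfbr2, a receptor, rose from 3.22 ± 0.2497 to 6.46 ± 1.18 FPKM (log2 fold change 0.81, SE 0.13, limma adjusted p = 0.0452, higher in 3 of 3 knockdown samples). Tgfb3, a ligand, stood at 3.09, 2.83 and 3.03 FPKM in the controls and at 5.77, 4.45 and 6.77 FPKM in the knockdown samples but missed the threshold (limma adjusted p = 0.05003). Ltbp3, which binds latent TGF-β, stood at 1.84-fold (limma adjusted p = 0.0981).

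Of 6 tested proteases that cut matricellular proteins, only Mmp2, which encodes a gelatinase, was called. It rose 4.54-fold (limma adjusted p = 0.0432), from 1.41, 1.43 and 2.01 FPKM to 9.07, 5.03 and 7.91 FPKM, so that knockdown sample 2 was lowest, as for Thbs4. Mmp14, a membrane-bound protease, stood at 1.93-fold (limma adjusted p = 0.0714) and Adamts4, which cuts hevin, at 1.35-fold (limma adjusted p = 0.0830).

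Of 13 tested relatives, Tgfbi, which encodes the paralogue of periostin, was the gene called. Tgfbi stood at 1.54, 1.77 and 1.92 FPKM in the controls and at 5.38, 3.78 and 6.62 FPKM in the knockdown samples, a rise of 3.02-fold (log2 fold change 1.17, SE 0.17, limma adjusted p = 0.0434). Fstl1, a relative of SPARC, stood at 1.51-fold (limma adjusted p = 0.0585), and Tnxb, tenascin X, at 0.683-fold with all 3 knockdown samples below the controls (limma adjusted p = 0.156). Tnr, tenascin R of the perineuronal matrix, stood at 16.0 ± 1.42 and 17.5 ± 3.32 FPKM. Spp1, osteopontin, stood at 12.04, 2.55 and 11.7 FPKM in the controls and at 46.3, 12.2 and 13.9 FPKM in the knockdown samples, where knockdown sample 1 alone stood apart. Tnr and Spp1 were chosen after their values were seen. None of the 4 tested genes for other synapse regulators secreted by astrocytes was called in limma, and 1 was higher and 0 lower at an unadjusted p under 0.05, with Gpc4, glypican 4, at 1.41-fold (limma adjusted p = 0.154), Ndp, norrin, at 1.31-fold (0.221) and Gpc6, glypican 6, at 1.12-fold (0.747).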

How the data were processed

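RNA was sequenced from 3 hippocampus samples with control virus and 3 with Sfswap knockdown virus. Per the labels' protocols, polyadenylated RNA was taken from 1.5 µg of total RNA and random-primed, and no strand marking is stated, so antisense reads cannot be told apart. The deposited values are FPKM made by the authors on mm10, per the submitters' processing notes. FPKM times the GENCODE M21 exon length gave 90.9% to 91.1% of values as whole reads within 0.01 reads, from which the depth of each library was derived, and 3 reads on 1 kb correspond to 0.166 to 0.180 FPKM.

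Genes averaging 1 FPKM or more were fitted in limma 3.58.1 (R 4.3.3) on the log2(FPKM + 1) scale (variance trend, two-sided, Benjamini-Hochberg over 14012 genes, called at an adjusted p under 0.05). The fit was tested on simulated data. As the labels do not say that samples are separate animals, p-values cover only sample-to-sample spread, possibly technical. The 8 genes, the gene lists, the markers and the tests were chosen with earlier results of these data known. Named are the 8 genes, Sfswap, each list's called genes and 3 smallest p-values, and the 3 genes most alike in pattern; other genes are said to be chosen later or are markers. Alternatives were the pseudocount, the filter, scaling, the variance trend, a replicate block, leaving out each sample and, chosen after seeing the data, recovered reads.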

Additional observations from a re-analysis of the deposited data

How the results depend on the processing

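The number of genes called depended strongly on the processing. Among all genes tested, 168 were called higher and 32 lower. The counts were 290 and 64 with a pseudocount of 0.1, 274 and 64 with 0.5, 170 and 65 with a filter at 5 FPKM, and 1 and 2 after scaling to an equal FPKM sum. They were 0 and 0 without a filter, with quantile normalization and without a variance trend in limma, where 2938 and 1478, 1528 and 1903, and 2213 and 1076 genes had an unadjusted p under 0.05. Recovered reads with voom, chosen after seeing the data, gave 498 and 96, and the same genes without voom 106 and 20. Leaving out 1 sample gave 0 to 160 higher and 0 to 30 lower, with 0 and 0 without control sample 1 or 2 or knockdown sample 1, 8 and 0 without control sample 3, 16 and 7 without knockdown sample 3, and 160 and 30 without knockdown sample 2. Among the receptors, partners and relatives, 6 were called higher. A filter at 5 FPKM gave 2, because it took Tgfbi, Sdc1, Tgfbr2 and Mmp2 out of the fit, while Itgb1 and Vcam1 stayed called. The count was 12 with voom, 0 without a filter, with either scaling or without a variance trend, and 0 to 6 with 1 sample left out. Of the 8 matricellular genes, 2 were called, 0 in those same settings that gave 0, and 0 to 2 with 1 sample left out, with 1 without knockdown sample 3. Same-numbered samples did not deviate together, with correlations of 0.050, 0.043 and -0.008, beside -0.132 to 0.083 for unlike numbers. With 3 samples per group this check cannot exclude a pairing, and the labels state none. A fit with the replicate block gave 0 calls in the whole table (2073 higher and 964 lower at an unadjusted limma p under 0.05). It gave 0 among the lists and 0 among the 8 genes.

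Values moved less than calls. The log2 fold change of Thbs1, 0.77, was 1.39 with a pseudocount of 0.1 and 1.53 with voom, that of Thbs2, 1.09, was 1.59 with a pseudocount of 0.1, and that of Tnc, 0.46, was 0.84 with voom. With 1 sample left out it ran from 0.52 to 0.96 for Thbs1, 0.85 to 1.22 for Thbs2, -0.27 to -0.05 for Thbs3, 1.48 to 1.99 for Thbs4, 0.75 to 0.91 for Sparc, -0.06 to 0.10 for Sparcl1 and 0.21 to 0.60 for Tnc. Gpc6 reversed with quantile normalization, from a log2 fold change of 0.08 to -0.0399. That of Sdc1, 1.49, was 2.92 with voom. For Thbs1, Thbs2, Tnc and Sdc1, with control means near or under the pseudocount of 1, that pseudocount lowers the log2 fold change, as described for Thbs1. The cause of the reversal of Gpc6 was not tested.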

Other observations

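Some partners of the matricellular proteins did not reach a mean of 1 FPKM and were not tested, so their values stand here alone. They were chosen after their values were seen. Tlr4, a receptor that tenascin C activates, stood at 0.386, 0.318 and 0.290 FPKM in the controls and at 0.650, 0.661 and 0.640 FPKM in the knockdown samples. Its knockdown samples were nearly level, unlike those of Tnc itself. Lox, the enzyme that crosslinks collagen and whose activation periostin aids, stood at 0.338, 0.241 and 0.324 FPKM in the controls and at 0.504, 0.913 and 1.50 FPKM in the knockdown samples. Itga9, an integrin subunit that binds tenascin C, stood at 0.581, 0.726 and 0.897 FPKM in the controls and at 1.39, 0.962 and 1.28 FPKM in the knockdown samples.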
